A study of Mus musculus with 38 samples.

Results

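The comparison described here is that of mice on a high fat, high sucrose diet (HFC) with mice on a low fat control diet (LFC) in brown adipose tissue at Weeks 3, 6 and 9. It was defined by the labels for diet and time point, and holds 6 of the 38 arrays of the series, 3 of HFC and 3 of LFC. All were C57BL/6J mice that entered the study after weaning at 3 to 4 weeks of age. In LFC 10% of the calories came from fat and in HFC 60%, and neither group received the herbal formulation Kal-1 that other groups of the series were given with the high fat diet. Weeks were counted from day 14 of feeding, so Weeks 3, 6 and 9 stand for 35, 56 and 77 days on the diet. The labels name 1 array per diet and week, from groups of 30 animals of which 5 were killed at each interval, and the sources used here do not say whether 1 array holds RNA of 1 animal or of a pool. The weeks therefore served as the replicates (n = 3 pairs), and p values measure the spread between these pairs.

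Brown adipose tissue burns fatty acids to make heat through UCP1, which lets protons leak back into the mitochondrial matrix. In mice this tissue also makes fatty acids from glucose at a high rate. Acetyl-CoA is supplied by ATP citrate lyase (Acly) and by acetyl-CoA synthetase (Acss2), carboxylated by acetyl-CoA carboxylase (Acaca), built into palmitate by fatty acid synthase (Fasn), and then elongated (Elovl6) and desaturated (Scd1, Scd2), with NADPH from malic enzyme (Me1) and the pentose phosphate pathway (G6pdx). Genes of this path are driven by the transcription factors SREBP-1c (Srebf1) and ChREBP (Mlxipl), those of cholesterol synthesis by SREBP-2 (Srebf2), and dietary polyunsaturated fat is known to lower the first set in liver.

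The arrays were not alike in brightness, and the Week 9 pair stood apart. The 75th percentile of the processed signal was 655 intensity units in LFC and 695 in HFC at Week 3, 178 and 163 at Week 6, and 1023 and 48.3 at Week 9, so that the 2 diets differed 21.2-fold at Week 9. Between 54.1% and 68.3% of spots were well above background on the 4 arrays of Weeks 3 and 6, against 70.4% in LFC and 43.6% in HFC at Week 9. The pairs of Weeks 3 and 6 were each scanned on 1 day, whereas both diets of Week 9 were scanned on different days. At Week 9 the diet, the brightness and the scan day cannot be told apart, and results are given with and without that week. Between 11 and 985 spots were saturated per array, and 764 of the 18626 genes tested had a saturated spot on at least 1 array, and a saturated spot gives only a lower limit of the signal. The brown adipocyte markers Ucp1, Cidea, Dio2, Elovl3, Cox7a1, Cox8b and Zic1 were well above background on 6 of 6 arrays, as was Retn of the 7 white adipocyte markers. Of the other white markers Lep and Agt were so on 5 of 6, and Hoxc8, Hoxc9, Hoxc10 and Tcf21 on 0 of 6. Correlations between arrays across genes ran from 0.844 to 0.976, so none was a copy of another.

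**Figure D1:**
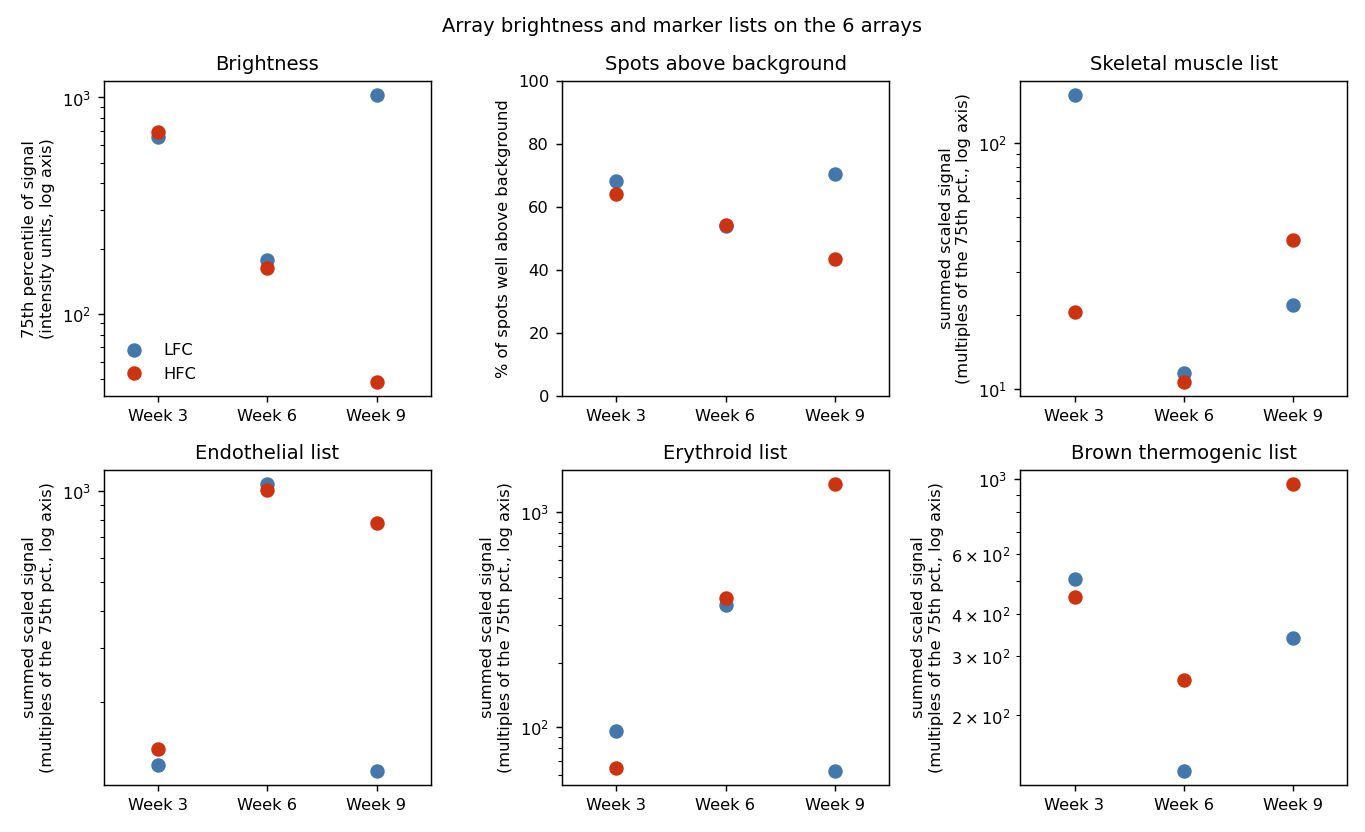
Each panel plots the 3 LFC (blue) and the 3 HFC (red) arrays by week: the 75th percentile of the signal (intensity units, log axis), the percent of spots well above background, and the summed scaled signal of 4 marker lists (multiples of the array's 75th percentile, log axis). The pairs of Weeks 3 and 6 lie close in brightness, the Week 9 pair does not (1023 in LFC, 48.3 in HFC), and the endothelial sums are low on the 3 bright arrays and high on the 3 dim ones.

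Other cell types differed between the arrays too. The summed signal of the 23 skeletal muscle genes, in multiples of the 75th percentile, was 157 in LFC and 20.6 in HFC at Week 3, 11.5 and 10.7 at Week 6, and 22.0 and 40.4 at Week 9. The fast myosin Myh4 differed by -8.50 log2 (HFC minus LFC) at Week 3, by -0.66 at Week 6 and by 6.15 at Week 9. The endothelial list (14 genes) summed to 118 to 139 on the bright arrays (both of Week 3 and LFC of Week 9) and to 780 to 1052 on the dim ones, and the erythroid list (6 of 10 genes on the array) to 62.9 to 96.0 against 371 to 1354. The macrophage list ranged from 54.9 to 143 in LFC and from 50.5 to 77.3 in HFC, and the T and B lymphocyte list from 2.01 to 4.24 and from 2.23 to 9.61. A probe for large subunit ribosomal RNA (Rn28s1) was higher in HFC at each week, by 1.31 log2 at first, then 1.71 and 7.12. The part of these in the diet differences was not tested. In whole tissue, fewer cells of a type and less RNA per cell cannot be told apart.

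The main question was which genes differed between the diets over these weeks. Values are log2 signal minus the 75th percentile of the array, and the fit was limma with the week as a block. Of 18626 genes tested 0 passed an adjusted p of 0.05 (0%), with 0.886 as the lowest adjusted p. Before adjustment, 371 genes (1.99%) lower in HFC and 238 (1.28%) higher had a p under 0.05. This balance turned in 5 settings: 182 lower and 411 higher with dim signals raised to the lowest one well above background, 130 and 229 with no filter on dim probes, 137 and 165 with the filter on all 6 arrays, 244 and 553 without Week 3 and 502 and 514 without Week 6. With normexp background correction 51 genes passed (0.274%), 47 of them lower in HFC (0.252%). In that fit all genes shared 1 standard error (0.43), so that its calls follow the size of the mean difference, and it also called Myh4, whose differences at Weeks 3 and 9 were opposite. The normexp count was 7 without Week 3, 338 without Week 6 and 17 without Week 9. The SD of the diet difference across all genes was 0.80, 0.70 and 1.46 log2 at the successive weeks. The differences at 1 week correlated with those at another at -0.0503, -0.0472 and 0.0840 across the 18626 genes, which are not independent replicates.

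Of the 26 lists, fatty acid synthesis had the lowest median of the mean difference over the 3 weeks, -1.70. Without Week 9 it was -1.23, and skeletal muscle was lower at -2.56. At Week 3 muscle and cholesterol synthesis had lower medians than fatty acid synthesis, and at Week 6 the interferon-stimulated list and the chemokines and cytokines did. Of the 18 genes of this list 11 were lower in HFC at all 3 weeks and 0 were higher at all 3 weeks, where 15.3% of all genes tested were lower and 9.72% higher. Over Weeks 3 and 6 alone 13 of 18 were lower at both weeks (28.8% of all genes) and 0 higher (18.2%). By week, the median difference of the list was -1.82, -0.47 and -2.72 log2, beside -0.09, -0.02 and 0.05 for all genes. In the Week 3 pair 5 of the 18 genes had a saturated spot, in the Week 6 pair 0 and in the Week 9 pair 6. The median level of the list also went with brightness: it was 5.94, 1.86 and 4.79 in LFC and 3.01, 1.36 and 1.64 in HFC at Weeks 3, 6 and 9, lower on the 3 dim arrays than on the 3 bright ones. Within the pairs of Weeks 3 and 6 the diets were close in brightness, with LFC at 0.942 and 1.09 times HFC. The skeletal muscle sum given above was 157 and 20.6 at Week 3 and 11.5 and 10.7 at Week 6, and the part of muscle in the list's differences was not tested. In the limma fit 0 of the 18 genes passed the adjusted threshold, and under normexp 10 of the 18 passed it, all of them lower in HFC, beside 0.252% of all genes.

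**Figure D2:**
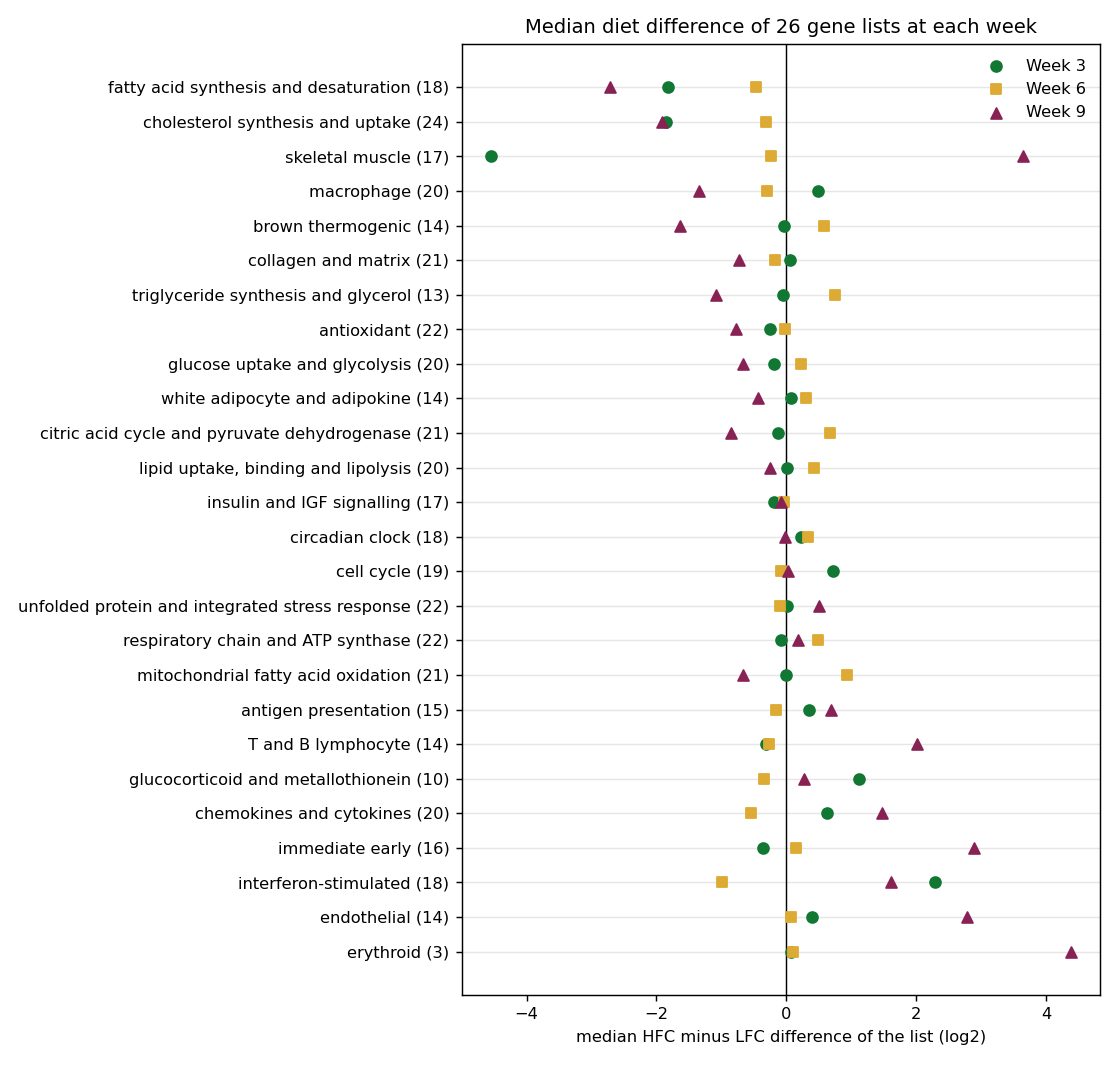
The plot gives the median HFC minus LFC difference (log2) of 26 gene lists at Weeks 3, 6 and 9, with the number of genes tested in brackets and lists sorted by their median over genes of the mean difference. The fatty acid and cholesterol lists lie left of 0 at each week, at -0.47 and -0.32 in Week 6, while the muscle list lies at -4.55 in Week 3 and 3.65 in Week 9.

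Acss2 had the largest mean difference of the list. Its level was 5.74, 1.21 and 5.46 in LFC at Weeks 3, 6 and 9, and 2.21, -0.24 and 0.73 in HFC. It was lower in HFC at each week, and its LFC level at Week 6 lay below the HFC level of Week 3, so the groups overlapped across weeks. The mean difference was -3.24 (SE 0.67, limma, adjusted p 0.886), and -2.49 without Week 9. A second probe of the gene gave -3.12.

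Malic enzyme Me1, with the smallest p of the list, stood at 6.52, 2.54 and 5.91 in LFC and at 3.52, 1.27 and 2.93 in HFC. Both diets were lowest at Week 6, and HFC was lower within each week. The difference was -2.42 (SE 0.48), or -2.14 without Week 9. The LFC spots of Weeks 3 and 9 were saturated, and a second probe, which was not saturated, gave -2.79.

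Scd1, the main desaturase of adipose tissue, was 6.47, 4.81 and 5.89 in LFC and 4.78, 3.27 and 4.31 in HFC. The difference at Week 6 was -1.54, where neither spot was saturated. The LFC spots of Weeks 3 and 9 were saturated, so that the measured differences there, -1.69 and -1.58, are only lower limits of the gap. By how much they pass that of Week 6 cannot be read from them. The mean, -1.60 (SE 0.34), and that without Week 9, -1.61, hold those limits.

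Elovl6, which elongates palmitate, was 6.54, 1.38 and 5.93 in LFC and 3.61, 0.15 and 1.04 in HFC, a difference of -3.01 (SE 0.72), or -2.08 without Week 9. The LFC spot of Week 9 was saturated, so its difference there is a limit. Scd2 was 5.88, 2.07 and 4.22 in LFC and 0.91, 1.46 and 1.11 in HFC. Its HFC levels were close to each other at the 3 weeks, and its LFC levels were not. The difference of Scd2 was -2.90 (SE 0.83). Acly differed by -2.11 (SE 0.63), with -3.64, -0.63 and -2.05 at the 3 weeks, and Acaca by -2.33 (SE 0.80), with -1.95, -0.46 and -4.56. Both were lower at each week, and least so at Week 6.

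Fasn depended on the probe. The brighter probe, which is the one of the main fit, was saturated on 3 of 6 arrays, and its difference was 0.38 (SE 0.52). The dimmer probe was saturated on 1 array. It read 6.10, 0.79 and 5.86 in LFC and 2.49, 0.37 and 1.41 in HFC, a difference of -2.83 (SE 0.81, limma, unadjusted p 0.0146, adjusted p 0.875). At Week 6, where neither probe was saturated, they gave -0.37 and -0.42. Thrsp, a lipogenic nuclear protein, had 3 saturated spots and a difference of 0.00 (SE 0.34).

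The regulators were lower by less at Week 6 or not lower. Srebf1 differed by -1.08 at Week 3, 0.24 at Week 6 and -3.30 at Week 9, with the LFC spots of Weeks 3 and 9 saturated. Mlxipl was at -1.10, -0.30 and -4.03. The delta-5 desaturase Fads1 differed by -0.04 (SE 0.35) and the delta-6 desaturase Fads2 by -0.51 (SE 0.35), with Week 3 differences of 0.21 and -0.26, while Scd2 at that week was at -4.97.

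**Figure D3:**
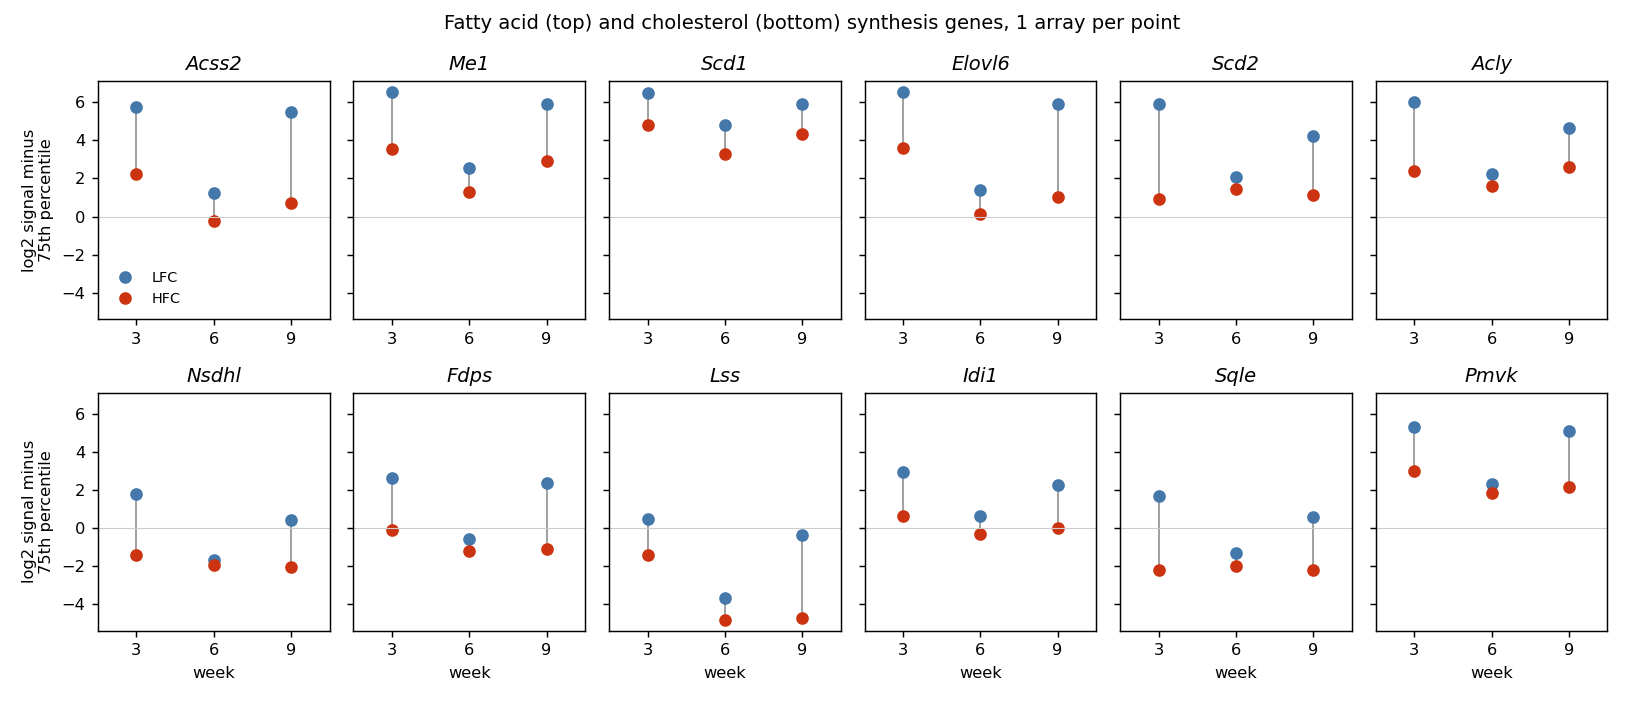
Each panel gives 1 gene, with log2 signal minus the 75th percentile of the array on the y axis and the week on the x axis; blue points are LFC, red points HFC, 1 array each, and grey lines join both diets of a week. Only members lower in HFC at each week were drawn, so that HFC lies under LFC in all 36 pairs follows from the choice. Members that went otherwise, such as Srebf2 and Stard4, are not shown. The line is shortest at Week 6 for 12 of 12 genes. Saturated LFC spots at Weeks 3 and 9 (Me1, Scd1) and at Week 9 (Elovl6) make the drawn gap a lower limit.

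Cholesterol synthesis and uptake was the other list with a low median. Of its 24 genes 17 were lower in HFC at all 3 weeks (15.3% of all genes) and 0 were higher (9.72%). At Week 3 all 24 of 24 were lower (58.3% of all genes), at Week 6 18 (52.3%) and at Week 9 20 (48.6%). The median difference was -1.86, -0.32 and -1.91 at the 3 weeks. The median level of this list went with brightness too. It was 1.73, -0.98 and 0.55 in LFC and -0.30, -1.35 and -1.10 in HFC at Weeks 3, 6 and 9. These levels were lower on the 3 dim arrays than on the 3 bright ones, and the part of brightness was not tested. Without Week 9 the median over genes of the mean difference was -1.18, beside -1.28 with it. In the limma fit 0 of the 24 genes passed the adjusted threshold, and under normexp 2 of the 24 passed it, Pmvk among them, both lower in HFC, beside 0.252% of all genes.

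Idi1, the isomerase that makes dimethylallyl diphosphate, was 2.95, 0.65 and 2.27 in LFC and 0.63, -0.31 and -0.01 in HFC. Its difference was -1.85 (SE 0.43), and the lowest LFC array lay just above the highest HFC array. A second, dimmer probe gave -1.15, and on it LFC at Week 6 (-4.07) lay below HFC at Week 9 (-3.50), so that the groups overlapped. Squalene epoxidase Sqle was 1.67, -1.30 and 0.57 in LFC and -2.22, -1.97 and -2.21 in HFC, so that its groups did not overlap. Its difference was -2.45 (SE 0.66). The adjusted p was 0.886 for both (limma).

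Further along the path, Fdps (farnesyl diphosphate synthase) differed by -2.71, -0.62 and -3.45 at the 3 weeks, and Nsdhl by -3.21, -0.25 and -2.47. Lanosterol synthase Lss differed by -1.84, -1.18 and -4.35, with 1 of its 3 HFC spots well above background. Not all members went with them. Srebf2 itself differed by -0.39, 0.72 and 0.70, and the sterol carrier Stard4 by -0.90, 0.40 and 2.17.

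Promoters of both lists are shown because nearly all members were lower at Week 3. For 16 of the 24 cholesterol genes an upstream window of 250 bases was at hand (RefSeq, build GRCm38.p6), and 16 of these 16 held the letters CCAAT on either strand, the core bound by NF-Y, a factor known to act with SREBPs. Among the fatty acid genes 9 of 15 (60%) held them, as did 4499 of the 11288 tested genes with a window (39.9%) and 37.5% of all genes with a window. The letters TCACNCCAC, a form of the sterol element, were in 1 of 16 and 1 of 15 windows (Hmgcs1 and Mlxipl), against 1.22% of all genes. The match to these letters is a description of the windows and no test of binding. The windows below belong to the members with the smallest p of each list that were lower at all 3 weeks and held the letters. They end at the base before the annotated start and run 5′ to 3′ on the strand of the gene, with CCAAT or its complement ATTGG in capitals: Me1 at chr9:86687278-86687527 (minus strand), Acss2 at chr2:155517793-155518042 (plus strand), Idi1 at chr13:8885356-8885605 (plus strand), Lss at chr10:76531355-76531604 (plus strand) and Pmvk at chr3:89454291-89454540 (plus strand).
Me1: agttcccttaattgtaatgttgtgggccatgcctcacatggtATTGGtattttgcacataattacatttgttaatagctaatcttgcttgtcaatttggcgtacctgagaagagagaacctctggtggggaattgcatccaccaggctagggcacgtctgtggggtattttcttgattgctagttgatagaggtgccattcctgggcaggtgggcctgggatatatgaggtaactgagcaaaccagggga
Acss2: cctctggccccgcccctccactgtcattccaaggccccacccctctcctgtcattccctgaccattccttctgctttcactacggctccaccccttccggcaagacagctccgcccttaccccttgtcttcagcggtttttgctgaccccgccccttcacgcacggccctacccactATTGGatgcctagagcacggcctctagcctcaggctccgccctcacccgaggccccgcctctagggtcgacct
Idi1: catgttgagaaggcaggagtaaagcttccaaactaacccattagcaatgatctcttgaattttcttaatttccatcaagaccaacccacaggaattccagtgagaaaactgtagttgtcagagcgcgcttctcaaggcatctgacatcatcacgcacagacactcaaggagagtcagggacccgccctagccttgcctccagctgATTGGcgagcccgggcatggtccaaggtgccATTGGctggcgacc
Lss: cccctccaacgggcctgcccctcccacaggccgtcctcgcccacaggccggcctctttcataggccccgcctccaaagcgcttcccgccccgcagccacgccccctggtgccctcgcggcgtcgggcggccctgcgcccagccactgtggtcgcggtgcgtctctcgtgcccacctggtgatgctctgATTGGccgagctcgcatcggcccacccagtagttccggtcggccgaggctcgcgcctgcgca
Pmvk: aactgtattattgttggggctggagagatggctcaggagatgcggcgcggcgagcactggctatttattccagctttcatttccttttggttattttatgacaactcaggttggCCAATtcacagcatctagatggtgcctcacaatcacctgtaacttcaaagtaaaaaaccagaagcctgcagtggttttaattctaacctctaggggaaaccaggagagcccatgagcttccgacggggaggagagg

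The Me1 and Acss2 windows held 1 copy each. The copy began 208 bases before the start in Me1, 73 in Acss2, 62 in Lss and 136 in Pmvk, and the 2 copies of Idi1 began 45 and 14 bases before it. Their genes differed by -2.42, -3.24, -1.85, -2.46 and -1.90 in the order of the sequences.

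**Figure D4:**
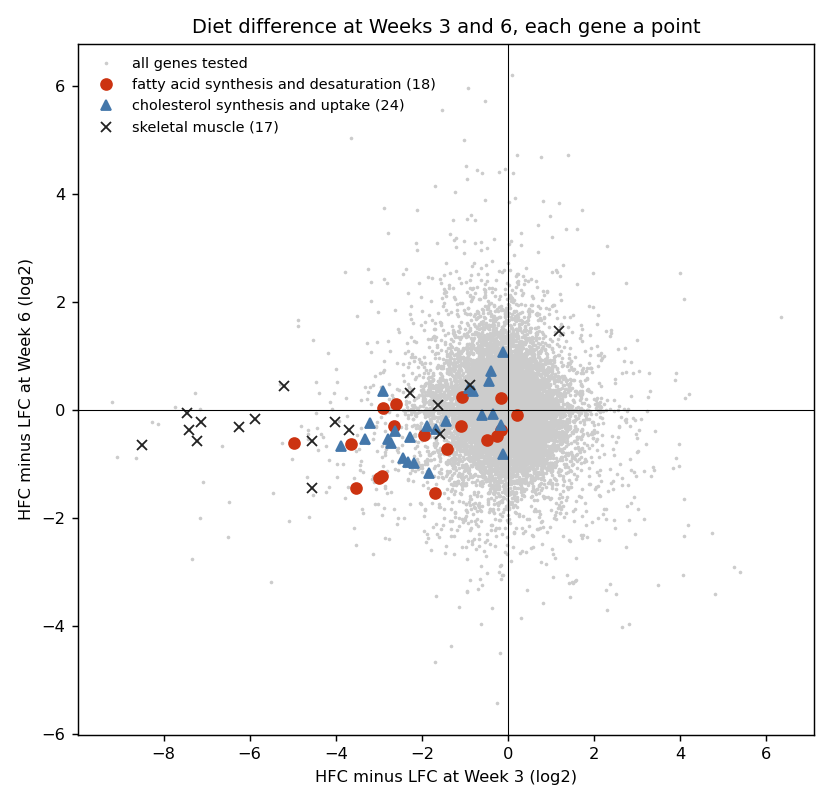
Each point is a gene, with its HFC minus LFC difference (log2) at Week 3 on the x axis and at Week 6 on the y axis; red circles are the fatty acid list, blue triangles the cholesterol list, black crosses skeletal muscle and grey points all genes tested. Of the lipid lists 17 of 18 and 24 of 24 members lie left of 0, with medians of -1.82 and -1.86 on the x axis and -0.47 and -0.32 on the y axis, and muscle genes lie far left with a median of -4.55 at Week 3.

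Genes that feed lipid synthesis were examined next, and none passed the adjusted threshold. The fructose transporter Slc2a5 (GLUT5) had the lowest mean among the genes selected for the smallest p. It was 4.76, -1.46 and 3.90 in LFC and -0.33, -3.53 and -2.93 in HFC, a difference of -4.66 (SE 0.91) and of -3.57 without Week 9. Slc2a5 was lower at each week, although its LFC level at Week 6 lay below the HFC level at Week 3. G6pdx, the entry to the pentose phosphate pathway, differed by -1.73, -0.29 and -2.74, and hexokinase Hk2 by -1.82, 0.52 and -3.38. The insulin-regulated glucose transporter Slc2a4 was at -0.91, 0.16 and -3.48 with 2 saturated LFC spots. In the glucose uptake and glycolysis list 2 of 20 genes were lower at all 3 weeks (15.3% of all genes) and 0 higher, which was under the share of all genes. The other gene lower at each week beside G6pdx was Aldoc (aldolase C), at -0.61, -3.25 and -2.84, which was above background on 1 of 3 HFC arrays.

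Triglyceride synthesis was mixed. Agpat2, which makes phosphatidic acid, differed by -1.81, -0.25 and -3.28. Glycerol kinase Gk, at 1.44, 1.73 and 0.05, was higher at each week and had a difference of 1.07 (SE 0.46). Of the 13 genes 1 was lower (15.3% of all genes) and 2 were higher (9.72%) at all 3 weeks.

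The retinol carrier and adipokine Rbp4 was 6.46, 1.86 and 5.30 in LFC and 3.91, 1.16 and 3.12 in HFC, a difference of -1.81 (SE 0.48). Its LFC spot of Week 3 was saturated, so the difference there is a limit. Leptin (Lep) was close at Weeks 3 and 9, with differences of -0.21 and -0.22, and differed by 4.41 at Week 6. It was well above background on 2 of 3 LFC and 3 of 3 HFC arrays. The array where it was not was LFC of Week 6 (-6.33), so the 4.41 rests on a signal not well above background. Adiponectin (Adipoq) differed by -0.09, 1.58 and -2.42, with 3 saturated spots. Of the 14 genes tested in the white adipocyte and adipokine list 1 was lower and 2 were higher at all 3 weeks. Of all genes 15.3% were lower and 9.72% higher.

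The thermogenic genes did not share a direction over the weeks. Ucp1 was 6.59, 5.24 and 5.91 in LFC and 6.47, 6.22 and 8.15 in HFC, with saturated spots on 3 arrays. At Week 6, the only pair with no saturated spot for it, it was higher in HFC by 0.98, and by 1.18 with the second probe, which gave -0.91 at Week 3 and -0.51 at Week 9. Cidea, Cox7a1 and Cox8b were likewise higher at Week 6, by 0.78, 1.05 and 1.14. The beta-3 adrenergic receptor Adrb3 differed by -1.45, 0.89 and -3.60, where the first and last are limits since the LFC spots of Weeks 3 and 9 were saturated. Dio2 differed by 0.91, -0.04 and -1.43 and Ppargc1a by 1.42, -0.10 and -1.49. Of the 14 genes tested 1 was lower at all 3 weeks (15.3% of all genes) and 0 were higher (9.72%).

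The 1 gene was Elovl3, which makes very long fatty acids and is a classic marker of active brown fat. It was 2.07, -1.17 and 1.87 in LFC and -5.02, -2.50 and -1.49 in HFC. The lowest LFC level lay above the highest HFC level, and the difference was -3.93 (SE 1.08). Without Week 9 it was -4.21.

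Of the 21 genes of mitochondrial fatty acid oxidation 1 was lower in HFC at Week 6 (52.3% of all genes). The median of the list was 0.00 at Week 3, 0.94 at Week 6 and -0.66 at Week 9. In the Week 3 pair 10 of the 21 genes had a saturated spot, in the Week 6 pair 0 and in the Week 9 pair 12, so that the medians of Weeks 3 and 9 hold limits. Slc25a20, the carnitine carrier, was higher by 2.68 at Week 6, Hadhb by 1.14 and Acadm by 1.27. At Week 9 Cpt1b differed by -2.85. Pdk4, which holds pyruvate back from oxidation, differed by 0.998, 0.64 and -0.72 at the 3 weeks, with a saturated spot at Weeks 3 and 9. At all 3 weeks 1 gene of the list was higher (9.72% of all genes) and 0 were lower.

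In the citric acid cycle list 0 of 21 genes were lower at Week 6 (52.3% of all genes), with a median of 0.67 and no saturated spot. The medians at Weeks 3 and 9 were -0.12 and -0.85, with 9 and 13 of the 21 genes saturated. In the respiratory chain list 0 of 22 were lower at Week 6, with a median of 0.49 and no saturated spot. At Week 3 19 of its 22 genes were saturated and at Week 9 20 were, so its differences at these weeks are not described. Neither the Week 6 medians nor their difference from the other weeks were tested, since each week has 1 array per diet.

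Interferon-stimulated genes were higher in HFC at Week 3, where 0 of 18 were lower (58.3% of all genes). They were lower at Week 6, where 16 of 18 were (52.3% of all genes). Their medians were 2.29, -0.98 and 1.61 at the 3 weeks. Isg15, a ubiquitin-like protein induced by interferon, was higher at each week, by 1.83, 0.78 and 2.54, a difference of 1.72 (SE 0.46). Irf7, a regulator of the response, differed by 4.09, -1.66 and 2.52. The glucocorticoid target Fkbp5 also turned, at 5.38, -3.004 and 0.11, while Zbtb16 was higher at each week, by 1.81, 0.73 and 4.13. Of the 20 macrophage genes 2 were lower at Week 3 and 18 at each later week. Of all genes 58.3%, 52.3% and 48.6% were lower at Weeks 3, 6 and 9. The chemokine Ccl2 differed by 3.03 at Week 3, -0.75 at Week 6 and -0.73 at Week 9, and the T cell gene Cd3g by -0.13, -0.98 and 2.15. The muscle actin Acta1 was at -5.22, 0.45 and 3.93.

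The endothelial list had 7 of 14 genes higher at all 3 weeks, beside 9.72% of all genes. Its medians were 0.40, 0.07 and 2.79, so that its Week 9 value went with the brightness given above. Pecam1 differed by 0.51, 0.68 and 3.50, and Tek by 1.08, 0.20 and 2.75. In the antioxidant list 9 of 22 genes were lower at all 3 weeks (15.3% of all genes) and 0 higher, and the median of the list was -0.25, -0.02 and -0.77. Sulfiredoxin Srxn1 differed by -0.92, -0.15 and -1.72, and its 3 probes ranged from -1.12 to -0.28 in the mean. The glutathione transferase Gsta3 differed by -1.39, -0.12 and -1.09, and thioredoxin Txn1 by -0.84, -0.31 and -1.10. These were past 2-fold at single weeks and small at Week 6. The remaining lists had between 0 and 5 members of 1 direction at all 3 weeks. Higher were 5 of 15 antigen presentation, 1 of 3 erythroid and 3 of 10 glucocorticoid and metallothionein genes. So were 4 of 19 cell cycle and 4 of 20 chemokine and cytokine genes, beside 9.72% of all genes. Lower in these lists were 2, 0, 0, 1 and 2 genes, beside 15.3% of all genes. None of the 26 lists had a member past the adjusted threshold.

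Beside the lists, genes were chosen by the smallest p in each direction among those of 1 direction at all 3 weeks. Golga7b, a partner of protein palmitoylation enzymes, had the smallest p of these. It was -1.26, -2.74 and -1.66 in LFC and -6.76, -5.94 and -4.78 in HFC, with no overlap. All 3 LFC spots and 0 of the 3 HFC spots were well above background. With HFC signals raised to the lowest one well above background on their array, the HFC level was 8.06-fold lower. This is no lower limit. At Week 3 that lowest signal was -8.33, so the measured -6.76, not itself well above background, entered unraised. The measured values differed by -3.94 (SE 0.58, adjusted p 0.886, limma). A second probe gave -3.20. With normexp the difference was -0.56.

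Among the others lower in HFC Camk2b, a calcium and calmodulin dependent kinase subunit, was well above background on all 6 arrays and differed by -2.34 (SE 0.37), or by -0.91 with normexp. Pstpip2 was so on 2 of 3 HFC arrays and differed by -1.88 (SE 0.38), or by -0.43 with normexp. The rest were dim in HFC. Dixdc1, Ttc25, Mal2, Sfrp4, Ninj2 and Cldn10 were well above background on 3 LFC arrays and 1 HFC array. The differences of Dixdc1, Ttc25 and Mal2 were -3.23 (SE 0.60), -3.08 (SE 0.59) and -2.69 (SE 0.55). They were -2.63, -3.05 and -2.69 with dim signals raised to the lowest one well above background, and -0.85, -1.21 and -1.08 with normexp. Sfrp4, a secreted inhibitor of WNT signalling, differed by -1.99 (SE 0.34), by -1.44 with dim signals raised and by 0.06 with normexp. Gca, Ninj2 and Cldn10 likewise had negative differences, -2.10, -1.81 and -1.86, that were 0.08, 0.06 and 0.18 with normexp, and the 3 probes of Cldn10 ranged from -1.86 to -0.51. None of the 3 HFC spots of Gca met the background criterion. With its dim signals raised, the HFC level of Gca was 2.37-fold lower, which is no lower limit either. Its HFC signal at Week 3, -6.04, lay over the -8.33 used for that array and so entered unraised.

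Of the genes higher in HFC, neuronatin (Nnat), an imprinted membrane protein found in adipose tissue, was -2.997, -4.34 and -4.79 in LFC and -0.60, -2.91 and -1.89 in HFC. The HFC array of Week 6 lay just above the LFC array of Week 3, so the groups did not overlap. Nnat was well above background on 2 of 3 LFC and 3 of 3 HFC arrays. The difference was 2.24 (SE 0.43), 1.91 without Week 9 and 1.28 with normexp. Rad51ap1 was 2.06, 1.58 and 1.75 higher at the 3 weeks, with no single week deciding its mean of 1.80 (SE 0.35). The amyloid precursor App was higher by 1.70, 1.38 and 3.01. With normexp the mean differences of Rad51ap1 and App were 0.88 and 1.48. The differences of Srrm4, Fthl17e, Pik3ip1, Pkn3, Arhgap27, Arf5, Rnf224 and Paip1 lay between 1.21 and 1.80, and between 0.62 and 0.93 with normexp. The 3 probes of Paip1 disagreed, at -0.84 to 1.35.

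The count of genes that differed by at least 2-fold in 1 direction at all 3 weeks was 59 lower (0.317%) and 23 higher (0.123%). More genes were higher than lower with dim signals raised to the lowest one well above background (28 lower, 62 higher), with no filter on dim probes (63 and 80) and without Week 3 (198 and 319). Of the genes named here, the lower ones held Acss2, Elovl3, Elovl6, Lss, Me1, Scd1 and Slc2a5. They also held Camk2b, Cldn10, Dixdc1, Gca, Golga7b, Mal2, Ninj2, Pstpip2, Sfrp4 and Ttc25. The higher ones held App, Nnat, Pik3ip1, Rad51ap1, Rn28s1 and Srrm4. Over Weeks 3 and 6 alone the counts were 200 (1.07%) and 75 (0.403%). At single weeks 8.8% of genes were 2-fold lower and 4.76% higher at Week 3, 5.74% and 5.81% at Week 6, and 20.9% and 24.2% at Week 9. No test goes with these counts.

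It was then asked whether the diet difference at Weeks 3 to 9 was unlike that before or after. On the 20 LFC and HFC arrays, 0 of 18626 genes passed for Weeks 3 to 9 against days 6, 10, 14 and Week 0 (160 at an unadjusted p under 0.05, 0.859%), and 0 for Weeks 3 to 9 against Weeks 12, 15 and 18 (1642, 8.82%, smallest adjusted p 0.083 in limma). With the brightness as a covariate the second contrast gave 360 genes. In 358 of them the HFC minus LFC difference was lower at Weeks 3 to 9 than at Weeks 12 to 18. None of the 360 genes came from the fatty acid or cholesterol lists (0). The median difference of the fatty acid list was -1.27 in the early period, -1.70 at Weeks 3 to 9 and -1.24 in the late one, and that of the cholesterol list -0.67, -1.28 and -0.62. Acss2 differed in these periods by -3.54, -3.24 and -1.90, and Slc2a5 by -4.21, -4.66 and -2.48. Elovl3 was at -4.28, -3.93 and -0.22.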

How the data were processed

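Brown adipose RNA was hybridised by the authors to 1-colour Agilent mouse arrays, and the deposited scanner files (Feature Extraction 10.5.1.1 per the file headers, 9.1 per the labels) hold the processed signal, an intensity that the software had corrected for background. A series table of the authors' log2 fold changes was deposited too; it holds their own comparisons and was not used. Of the 38 arrays, 6 served the diet comparison and 20 the comparison between periods. From the intensity, log2 minus the 75th percentile of the array was computed (R 4.3.3, limma 3.58.1); control and outlier spots were left out, spots of a probe averaged, and the probe with the highest mean taken for a gene if it was well above background on at least 3 of 6 arrays, which left 18626 genes. The fit (lmFit, eBayes) had diet and week as terms, with Benjamini-Hochberg adjustment at 0.05. It was also run on simulated data with normal noise of equal SD for all genes and arrays. The measured differences had an SD of 0.80, 0.70 and 1.46 log2 at Weeks 3, 6 and 9. That run therefore does not show how the fit handles the wider Week 9 pair. Same-numbered arrays were paired by the shared time point; their deviations from the group means correlated at 0.64, 0.76 and -0.27 at Weeks 3, 6 and 9. The alternatives were normalization, background correction (normexp, offset 50), filters, floor, block, array weights, brightness, scan day, test and leaving out each week. The members and the 26 lists were chosen with earlier results of these data known. Named genes were, first, the 12 of smallest p in each direction among those of 1 direction at all 3 weeks. To these came the 3 of smallest p in each list and a fixed set of 21 fat and marker genes. Further list members, such as Srebf1, Scd2, Fads1 and Hadhb, were named after their values were seen. So was Rn28s1, which is in none of the lists. Array spots carry no read depth, and the number of arrays limits the precision. The number of columns mapped to no sample was 0. The values of a few list members are not reported here.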

Additional observations from a re-analysis of the deposited data

How the results depend on the processing

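The count of 0 genes past the adjusted threshold held under quantile normalization, the floor on dim signals, no filter (29324 genes), the filter on all 6 arrays (13303 genes), array weights, brightness as a covariate, scan day as a block, all 20 LFC and HFC arrays, every probe tested, the methods' t-test (358 at an unadjusted p under 0.05, 0 after Benjamini-Hochberg adjustment) and without any 1 week; it was 51 with normexp. Scan day as a block was no separate check. Each Week 9 array had a scan day of its own, so this block gave the same values as leaving Week 9 out. Without the replicate block the count was 0 too (193 at an unadjusted p under 0.05, against 609 with it). Slide as a block could not be fitted, since the 6 arrays lay on 6 slides. The contrast with Weeks 12 to 18 gave 0 genes under the other settings and 360 with brightness as a covariate; the cause was not tested. The 59 genes 2-fold lower at all 3 weeks became 92 with quantile normalization, 12 with normexp, 28 with the floor, 12 with the filter on all 6 arrays, and 198, 515 and 200 without Weeks 3, 6 and 9, where fewer weeks had to pass. The 23 higher became 1 with normexp, 62 with the floor, 80 with no filter, 8 with the filter on all 6 arrays and 319, 405 and 75 without Weeks 3, 6 and 9. The medians of the fatty acid and cholesterol lists moved by less than the spread between weeks in 12 of 12 values. Of 1184 values of the 80 genes tested and named, 65, of 24 genes, had the opposite sign; 18 passed the threshold, all with normexp. The opposite signs were, with normexp, 0.075 for Aldoc, 0.18 for Cldn10, 0.32 for Dio2, 0.27 for Fads1, 0.17 for Fads2, -0.091 for Fasn, 0.083 for Gca, 0.063 for Ninj2, -0.16 for Pdk4, 0.21 for Ppargc1a, 0.057 for Sfrp4, -0.45 for Thrsp, 0.083 for Zic1; with quantile normalization, -0.033 for Fasn, -0.31 for Thrsp; with array weights, 0.14 for Adipoq, -0.16 for Cd3g, 0.13 for Cpt1b, 0.51 for Dio2, 0.10 for Fads1, -0.081 for Fasn, 0.84 for Ppargc1a, -0.047 for Srebf2, -0.36 for Stard4, -0.069 for Thrsp; with brightness as a covariate, 0.74 for Adipoq, -0.55 for Cd3g, 0.57 for Cpt1b, 0.45 for Dio2, 0.059 for Fads1, -0.28 for Fasn, 0.69 for Ppargc1a, -0.28 for Stard4; and with scan day as a block, or on 18 arrays without Week 9 (chosen after seeing the data), 0.75 for Adipoq, -0.55 for Cd3g, 0.56 for Cpt1b, 0.43 for Dio2, 0.054 for Fads1, -0.27 for Fasn, 0.66 for Ppargc1a, -0.25 for Stard4. Without 1 week the differences ranged over -2.38 to 2.19 for Acta1, -1.25 to 0.75 for Adipoq, -0.74 to 1.15 for Ccl2, -0.55 to 1.01 for Cd3g, -1.34 to 0.56 for Cpt1b, -0.74 to 0.43 for Dio2, -0.17 to 0.054 for Fads1, -0.27 to 0.76 for Fasn, -1.45 to 2.75 for Fkbp5, -0.21 to 2.10 for Lep, -4.58 to 2.75 for Myh4, -0.037 to 0.82 for Pdk4, -0.80 to 0.66 for Ppargc1a, -0.48 to 1.11 for Slc25a20, -0.25 to 1.28 for Stard4, -0.11 to 0.09 for Thrsp. On the dim arrays 43.6% to 54.3% of spots were well above background, which limits the dim genes named.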
